A study of Mus musculus with 16 samples.

Results

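The genes described here mark the epithelial or the mesenchymal state of a cell, and they were measured in tumour cells enriched from mice bearing LLC1 tumours. LLC1 is a cell line of Lewis lung carcinoma, a transplantable mouse lung tumour. The 10 genes were taken by name from a table of 24334 genes and each matched 1 row. They are the epithelial adhesion genes Cdh1 and Epcam, the mesenchymal or neural-type genes Cdh2, Vim and Ncam1, and the transcription factors Zeb1, Zeb2, Snai1, Snai2 and Twist1. There were 4 groups of 4 libraries, each after 16 days of treatment. They were TMP195 at 50 mg/kg, an inhibitor of class IIa histone deacetylases, MYCi975 at 50 mg/kg, an inhibitor of MYC, Combo with both compounds at doses not stated, and Vehicle, which was DMSO. The sources used here do not give the mice's age, sex or strain, the route of dosing, the tumour site or how the tumour cells were enriched. All groups carried the same transplanted line. Nothing in the labels ties a library to a mouse, and each p-value below therefore measures library-to-library spread, part of which may be technical.

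Epithelial cells are held together by E-cadherin, the product of Cdh1, and carry the surface protein EpCAM. In the epithelial to mesenchymal transition these genes are switched off, N-cadherin (Cdh2) and the intermediate filament protein vimentin (Vim) are made, and cells become motile. The zinc finger factors ZEB1, ZEB2, SNAI1 (Snail) and SNAI2 (Slug) bind short DNA motifs called E-boxes, CACCTG on one strand and CAGGTG on the other, in promoters of epithelial genes and repress them. TWIST1 is a basic helix-loop-helix factor that also drives the transition. NCAM1 is a neural cell adhesion molecule that some carcinoma cells gain when they lose E-cadherin. ZEB2 is also made by macrophages, so leukocytes in a sample can contribute to its level.

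Promoter windows of 250 bases before the RefSeq gene start (GRCm38.p6) were at hand for 5 of the 10 genes, and those of Epcam and Snai1 held the 6-base E-box. The sequences are shown because they carry the motif that the ZEB and SNAI factors read, with the motif in capitals. The Epcam window, chr17:87635729-87635978 on the plus strand, held CACCTG starting at -187 and CAGGTG at -19, counted from the start site. The Snai1 window, chr2:167537945-167538194 on the plus strand, held CACCTG at -126.
Epcam: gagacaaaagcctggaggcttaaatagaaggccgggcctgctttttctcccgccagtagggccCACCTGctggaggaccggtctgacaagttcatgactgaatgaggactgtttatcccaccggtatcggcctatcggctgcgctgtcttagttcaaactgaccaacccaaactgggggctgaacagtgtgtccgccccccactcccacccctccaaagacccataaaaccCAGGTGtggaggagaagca
Snai1: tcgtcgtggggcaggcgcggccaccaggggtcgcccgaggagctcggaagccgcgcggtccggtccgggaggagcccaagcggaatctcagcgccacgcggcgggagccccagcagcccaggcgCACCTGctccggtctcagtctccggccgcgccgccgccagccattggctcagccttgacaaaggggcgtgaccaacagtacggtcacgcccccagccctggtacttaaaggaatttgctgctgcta
Of 32851 such mouse windows, 17.2% held at least 1 copy on either strand and 2.06% held 2 or more. The windows of Vim, Twist1 and Zeb2 did not hold these letters. No window was at hand for Cdh1, Cdh2, Zeb1, Snai2 or Ncam1, so their promoters were not searched. A match is a description of the sequence, and no binding was measured.

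The values are variance-stabilised and close to log2, and 4.84 is the lowest value in all 16 libraries. A difference of 1 is about a doubling for well expressed genes, and differences of weakly expressed genes are understated. Levels were not compared between genes, because the values are not corrected for gene length. The depth per library is unknown. A gene was tested when it exceeded the lowest value by at least 1 in 4 or more libraries, and 15715 genes passed. Of the 10 genes, 8 passed and exceeded that level in all 16 libraries, whereas Cdh1 and Epcam did not pass.

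The epithelial adhesion genes were at or near the lowest value in most libraries of every group. Cdh1 (ENSMUSG00000000303.14), which encodes E-cadherin, had 5.87, 5.21, 4.84 and 5.36 in TMP195 replicates 1 to 4. It had 5.20, 5.11, 5.12 and 6.07 in MYCi975, 4.84, 5.65, 4.84 and 5.11 in Combo, and 5.22, 4.84, 5.46 and 4.84 in Vehicle. It was listed at the lowest value in 5 of 16 libraries, and the groups overlapped throughout. Epcam (ENSMUSG00000045394.10) had 5.35, 4.84, 4.84 and 5.14 in TMP195, and 5.51, 5.22, 4.84 and 6.17 in MYCi975. It had 4.84, 5.52, 4.84 and 4.84 in Combo, and 5.43, 4.84, 4.84 and 4.84 in Vehicle, and thus lay at the lowest value in 9 of 16 libraries. The highest values of both genes came from MYCi975 replicate 4, and in Combo both were highest in replicate 2.

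Against Vehicle, the mean of Cdh1 was 0.23 higher in TMP195, 0.28 higher in MYCi975 and 0.02 higher in Combo, with exact permutation p of 0.543, 0.4 and 1 (two-sided, 4 against 4, smallest possible p 0.0286). The mean of Epcam differed by 0.05 in the TMP195 group, 0.45 in the MYCi975 group and 0.02 in the Combo group, with exact permutation p of 1, 0.257 and 1 in that order. Without all libraries numbered 4, which leaves out MYCi975 replicate 4, the MYCi975 difference of Cdh1 was -0.03 and that of Epcam 0.15. At these values near the lowest, no difference between groups was detected.

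**Figure D1:**
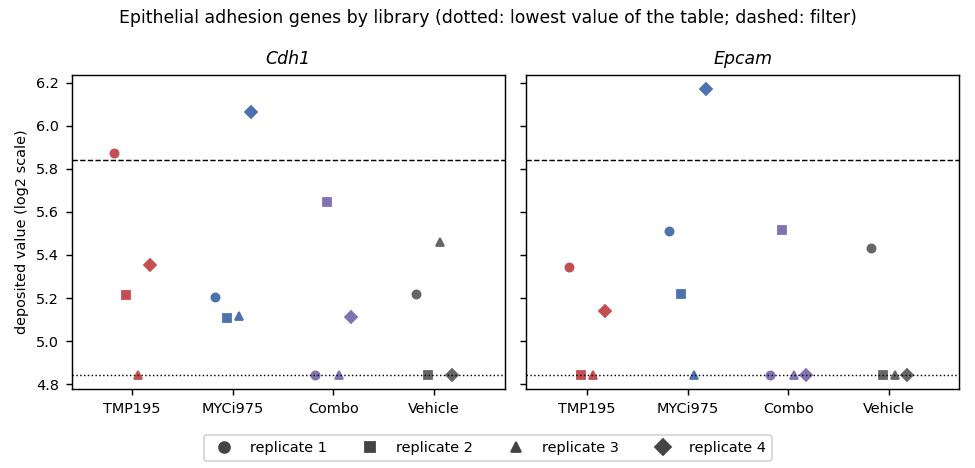
Deposited log2-scale values of Cdh1 and Epcam in the 16 libraries, by group and replicate number. The dotted line is the lowest value of the table, 4.84, and the dashed line lies 1 unit above it; MYCi975 replicate 4 lies above the dashed line for both genes, and TMP195 replicate 1 for Cdh1.

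Other epithelial genes gave a mixed record. Of a list of 32, 25 had a row in the table, 13 of these were at the lowest value in at least 1 library and 8 in at least 8 libraries. The 8 were the tight junction genes Cldn4, Cldn7, Tjp3 and Marveld3, the splicing factor gene Esrp1, the membrane traffic gene Mal2 and the protease inhibitor genes Spint1 and Spint2. Some keratin and junction genes were above the lowest value in all 16 libraries. Krt8 ran from 10.17 to 10.97 over the 16 libraries and its partner Krt18 from 10.18 to 11.45. Tjp1, which encodes the junction scaffold ZO-1, ran from 12.43 to 13.41.

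Among the genes described here, the mesenchymal markers and the transcription factors were above the lowest value in every library. Over the 16 libraries, Vim ran from 16.69 to 17.54, Zeb1 from 11.61 to 12.24, Twist1 from 10.49 to 11.13 and Snai1 from 6.92 to 7.81. Their spread between libraries of a group was like that of other genes. The within-group SD was between 0.15 for Twist1 and 0.26 for Snai1 in 7 of the 8 tested genes, against a median of 0.22 over all tested genes. Snai2 had the widest spread, 0.45.

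**Figure D2:**
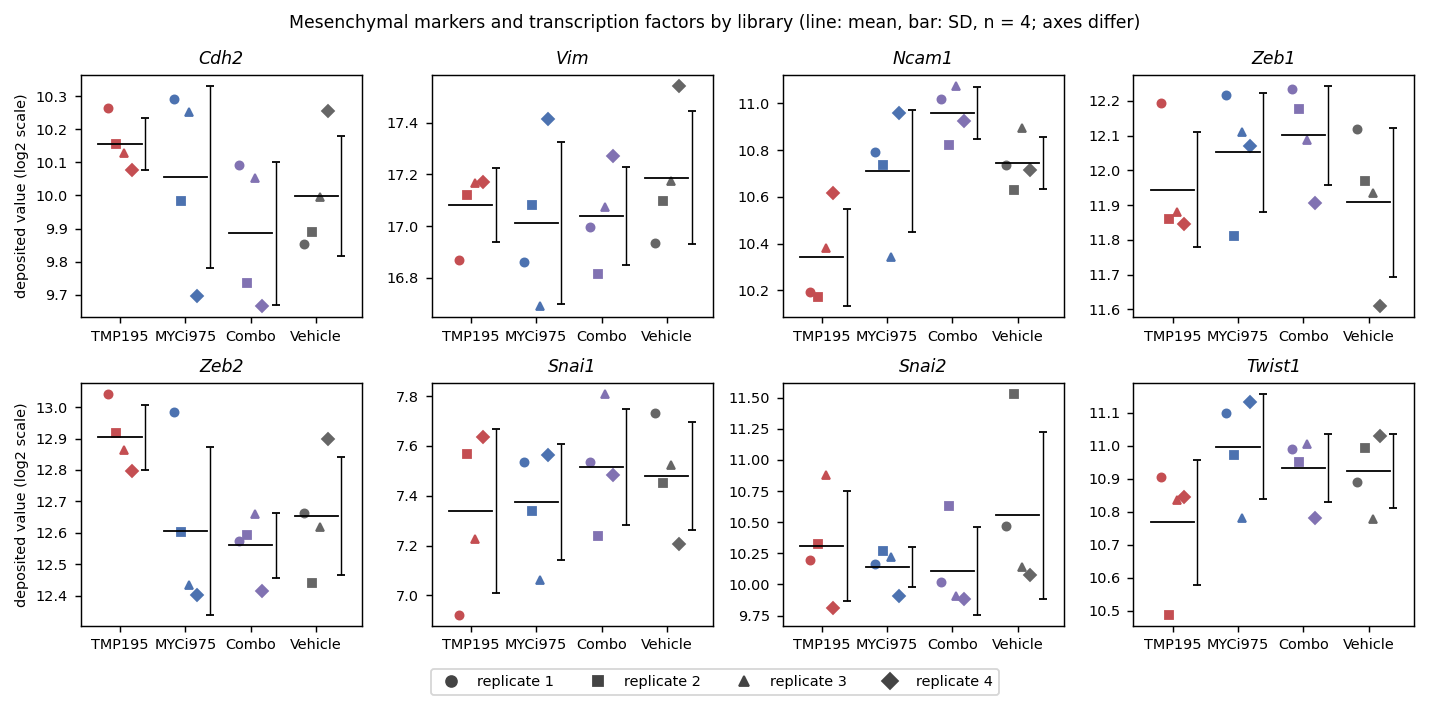
Deposited log2-scale values of the 8 tested genes by group; symbols give the replicate number, lines the means and bars the SD of 4 libraries, and each panel has its own axis. All 4 TMP195 libraries lie below all 4 Combo libraries and all 4 Vehicle libraries for Ncam1, and Snai2 in Vehicle replicate 2 (11.53) lies above the other 15 libraries.

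None of the 8 tested genes was called in any comparison. The tests used limma's moderated fit across all genes with Benjamini-Hochberg adjustment, and 0% of 15715 genes were called at an adjusted p under 0.05 in each of the 6 comparisons. At an unadjusted p under 0.05, the count of the 8 genes was 1 for TMP195 against Vehicle, where 4.88% of all tested genes passed. It was 0 for MYCi975 against Vehicle (3.03% of all tested genes), 0 for Combo against Vehicle (4.09%) and 0 for Combo against MYCi975 (2.32%). It was 2 between Combo and TMP195 (5.33%) and 1 in the interaction (3%). The interaction asks whether the effect of TMP195 differs with and without MYCi975, if the Combo doses match those of the single compounds. These counts rest on 2 genes, Ncam1 and Zeb2, and all of them use the TMP195 libraries.

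Ncam1 (ENSMUSG00000039542.17) was lower in the TMP195 libraries than in those of Combo and Vehicle. It had 10.19, 10.17, 10.38 and 10.62 in TMP195 replicates 1 to 4, and 10.79, 10.74, 10.34 and 10.96 in MYCi975. It had 11.02, 10.82, 11.08 and 10.92 in Combo, and 10.74, 10.63, 10.90 and 10.72 in Vehicle. The highest TMP195 library lay just under the lowest Vehicle library, 10.62 against 10.63, and well under the lowest Combo library. In MYCi975, replicate 3 lay among the TMP195 values and the other 3 did not.

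Ncam1 averaged 10.34 ± 0.21 in TMP195 and 10.74 ± 0.11 in Vehicle (SD, n = 4 each), a difference of -0.40 (standard error (SE) 0.13, limma adjusted p = 0.945). For Combo against MYCi975 and against Vehicle the intervals included 0. Ncam1 averaged 10.96 ± 0.11 in Combo, 10.71 ± 0.26 in MYCi975 and 10.74 ± 0.11 in Vehicle, which gave differences of 0.25 from MYCi975 (95% confidence interval -0.02 to 0.53) and 0.22 from Vehicle (-0.06 to 0.49). Their limma adjusted p were 1 and 0.987.

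Between Combo and TMP195 the difference of Ncam1 was 0.62 (SE 0.13, 95% confidence interval 0.34 to 0.89, limma adjusted p = 0.325), the 7th smallest p of 15715 genes. The interaction of Ncam1 was 0.65 (SE 0.18, 95% confidence interval 0.26 to 1.04, limma adjusted p = 1), the 12th smallest p. TMP195 against Vehicle was -0.40, and Combo against MYCi975, the TMP195 contrast in the presence of MYCi975, was 0.25. The Combo doses are not stated, so an interaction and a dose difference cannot be told apart. The TMP195 libraries enter 3 of these Ncam1 results, which are therefore not independent of each other. Ncam1 was among the 1.4% of tested genes whose TMP195 libraries all lay below Vehicle, and among the 1.75% whose Combo libraries all lay above TMP195.

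Zeb2 (ENSMUSG00000026872.19), a repressor of epithelial genes, was highest in the TMP195 libraries. It had 13.04, 12.92, 12.86 and 12.80 in TMP195, 12.98, 12.60, 12.44 and 12.40 in MYCi975, 12.57, 12.59, 12.66 and 12.41 in Combo, and 12.66, 12.44, 12.62 and 12.90 in Vehicle. All 4 TMP195 libraries lay above all 4 Combo libraries, while MYCi975 replicate 1 and Vehicle replicate 4 reached the TMP195 values. Combo minus TMP195 was -0.34 (SE 0.13, limma adjusted p = 0.799), and 1.62% of all tested genes had Combo libraries all below TMP195. TMP195 minus Vehicle was 0.25 (SE 0.13, limma adjusted p = 0.945), and the Zeb2 differences of MYCi975 and Combo from Vehicle were -0.05 and -0.09. Both had the other sign without all libraries numbered 4, at 0.10 and 0.03.

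**Figure D3:**
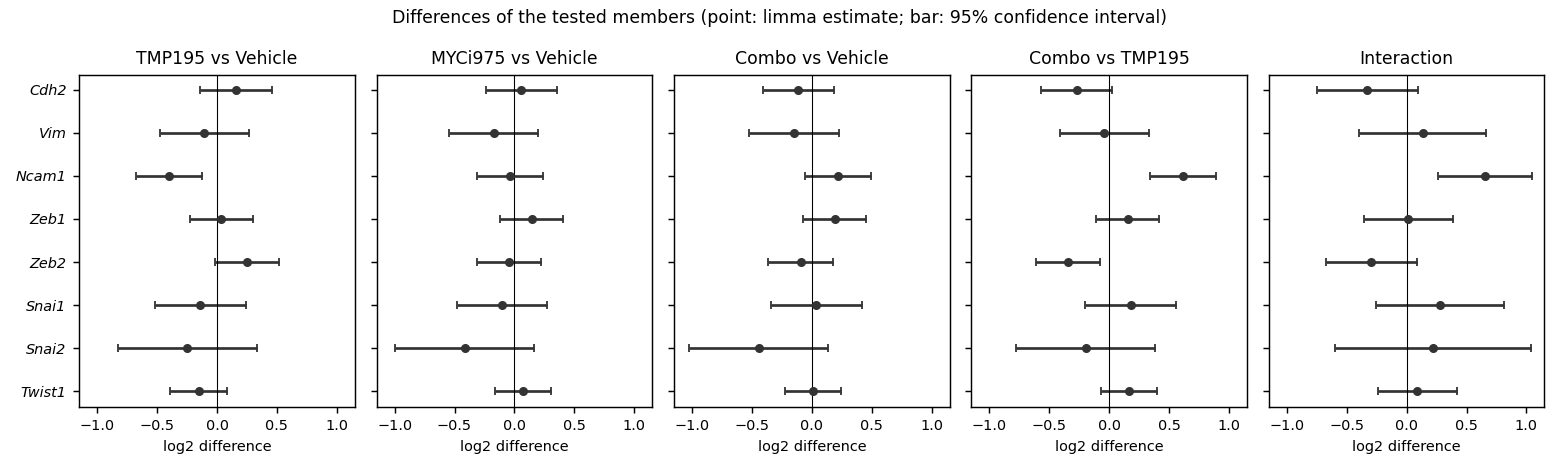
Differences of the 8 tested genes on the log2 scale in 5 comparisons, as the first group minus the second; points are limma estimates and bars 95% confidence intervals. The interval of Ncam1 lies below 0 for TMP195 against Vehicle and above 0 both between Combo and TMP195 and in the interaction, and that of Zeb2 lies below 0 for Combo against TMP195; none passed the adjustment over all genes.

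Leukocyte marker levels differed alongside both genes. All 8 tested leukocyte markers of a list of 10 were higher in TMP195 than in Vehicle (0 called, median difference 0.73), and all 8 were lower in Combo than in TMP195 (0 called, median -0.76). The mean of these 8 markers ran from 6.46 to 8.01 in TMP195, 6.15 to 7.21 in MYCi975, 6.13 to 6.66 in Combo and 6.24 to 6.73 in Vehicle. The leukocyte markers Cd48 and Cd52 were at the lowest value in at least 1 library and were not tested. All 7 tested macrophage and monocyte markers were also higher in TMP195 than in Vehicle (median 0.63), although Cd68 by only 0.01 (SE 0.15). Adgre1, C1qa, C1qb, C1qc and Cd163 of that list were at the lowest value in at least 1 library. The mean of those 7 ran from 6.54 to 7.93 in TMP195, 6.20 to 6.61 in MYCi975, 6.29 to 6.67 in Combo and 6.27 to 6.88 in Vehicle. Of 6 tested neutrophil markers, 5 were higher and 1 lower in TMP195 than in Vehicle (median 0.64). In MYCi975 all 6 were higher than in Vehicle (median 0.46), and their mean was highest, 8.16, in MYCi975 replicate 3. In bulk samples, fewer cells of a type and less RNA per cell cannot be told apart.

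Ncam1 was lower where leukocyte markers were higher (Pearson r = -0.77, permutation p = 0.00055, adjusted p = 0.0121; Spearman rho = -0.68, permutation p = 0.00503, adjusted p = 0.0443; n = 16 libraries, 44 relations computed). It was r = -0.63 without TMP195 replicate 1 and MYCi975 replicate 3, the 2 libraries farthest from the median in leukocyte markers, and -0.59 within groups. The permutations ignored the groups, so the p includes the group differences given above, and no p was computed within groups. With the leukocyte mean as a covariate, the Ncam1 difference was -0.22 (SE 0.14) for TMP195 against Vehicle, 0.42 between Combo and TMP195, and 0.41 in the interaction. Their unadjusted limma p were 0.147, 0.011 and 0.0534. Without those 2 libraries the differences were -0.35, 0.57 and 0.48.

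Zeb2 had r = 0.47 and rho = 0.35 with the leukocyte mean (permutation p = 0.065 and 0.189, adjusted p = 0.238 and 0.462, n = 16), 0.49 without the same 2 libraries and 0.12 within groups. With the covariate, the Zeb2 difference was 0.21 for TMP195 against Vehicle and -0.31 for Combo against TMP195, with unadjusted limma p of 0.195 and 0.078, against 0.0651 and 0.0146 without it. TMP195 replicate 3 had 6.46 for the leukocyte mean and 12.86 for Zeb2, both within the Vehicle ranges. The part of leukocytes in the Zeb2 and Ncam1 values was not tested beyond these measurements.

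**Figure D4:**
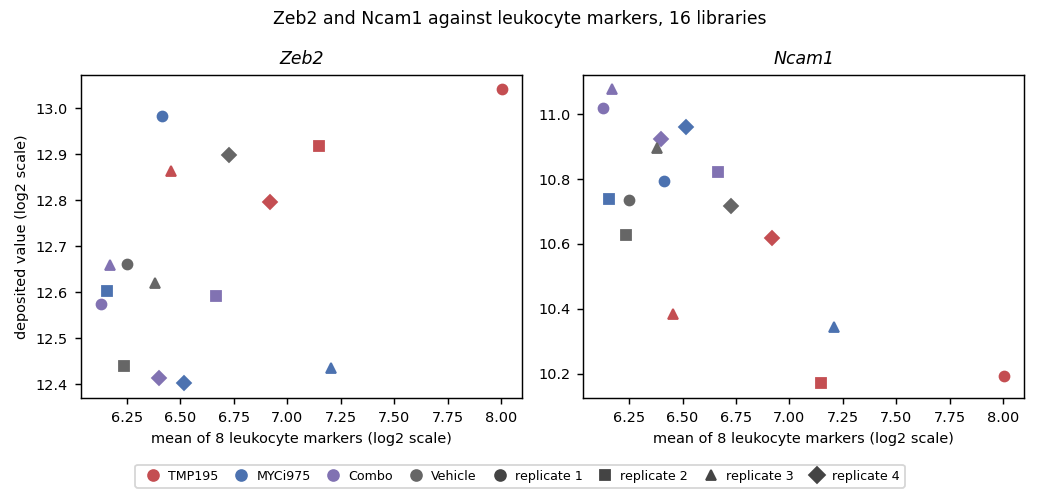
Deposited log2-scale values of Zeb2 and Ncam1 against the mean of the 8 tested leukocyte markers in 16 libraries; colours give the group and symbols the replicate number. Ncam1 is low where the leukocyte mean is high. TMP195 replicate 3 has 10.38 for Ncam1 and 12.86 for Zeb2 at a leukocyte mean of 6.46. Zeb2 is higher in Vehicle replicate 4 (12.90) and MYCi975 replicate 1 (12.98).

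Ncam1 was also correlated with stromal genes. Its correlation with the mean of 8 fibroblast and pericyte markers, such as the matrix genes Dcn and Col1a1, was r = 0.79 (permutation p = 0.00022, adjusted p = 0.00968; rho = 0.78, permutation p = 0.00074, adjusted p = 0.0311; n = 16). It was 0.75 without MYCi975 replicate 3 and Combo replicate 3 and 0.86 within groups. Cdh2 went the other way with the same mean (r = -0.60, permutation p = 0.0131, adjusted p = 0.0825; rho = -0.68, permutation p = 0.00448, adjusted p = 0.0443; n = 16), and r was -0.69 without those 2 libraries and -0.50 within groups. That mean ran from 10.70 to 11.12 in TMP195, 10.45 to 11.31 in MYCi975, 10.98 to 11.43 in Combo and 10.75 to 11.13 in Vehicle. Fibroblasts and mesenchymal tumour cells both make these genes, and their parts cannot be told apart in these libraries. The tested genes most like Ncam1 over the 16 libraries were the protease gene Prss23 (r = 0.90, rho = 0.84), Morc4 (r = 0.90, rho = 0.83) and Tgfb3, a ligand of the TGF-beta family (r = 0.87, rho = 0.84). They are the highest of 12161 candidates and serve as a description.

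Cdh2 (ENSMUSG00000024304.15), which encodes N-cadherin, had 10.26, 10.16, 10.13 and 10.08 in TMP195 and 10.29, 9.98, 10.25 and 9.70 in MYCi975. It had 10.09, 9.74, 10.05 and 9.67 in Combo, and 9.85, 9.89, 9.996 and 10.26 in Vehicle. The TMP195 values lay close together and overlapped those of every other group. Cdh2 averaged 9.89 ± 0.22 in Combo and 10.16 ± 0.08 in TMP195 (SD, n = 4 each), a difference of -0.27 (SE 0.14, limma adjusted p = 0.962). Its differences from Vehicle were 0.16 in TMP195, 0.06 in MYCi975 and -0.11 in Combo. Without all libraries numbered 4 they were 0.27, 0.26 and 0.05. Cdh2 and Zeb2 varied together over the libraries (r = 0.71, permutation p = 0.00266, adjusted p = 0.0293; rho = 0.72, permutation p = 0.00212, adjusted p = 0.0311; n = 16). The genes most like Zeb2 were Dnah17 (r = 0.83), the toll-like receptor gene Tlr7 and the adaptor gene Ap1g1 (r = 0.82 each), and those most like Cdh2 were Hal (r = 0.78), Soat1 and Mia2 (r = 0.77 each). For Cdh2 and Zeb2 the value was r = 0.58 without Combo replicate 4 and MYCi975 replicate 4, the farthest in Cdh2, and 0.66 within groups.

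Vim (ENSMUSG00000026728.10), the vimentin gene, had 16.87, 17.12, 17.17 and 17.17 in TMP195, and 16.86, 17.08, 16.69 and 17.42 in MYCi975. It had 17.00, 16.81, 17.07 and 17.27 in Combo, and 16.93, 17.10, 17.17 and 17.54 in Vehicle. The groups overlapped, and the libraries numbered 4 were highest, or level with the highest, in every group. Relative to Vehicle, Vim was at -0.11 in TMP195, at -0.17 in MYCi975 and at -0.15 in Combo (SE 0.18 each). Without Vehicle replicate 4 the differences were 0.01 in TMP195, -0.06 in MYCi975 and -0.03 in Combo. The genes most like Vim were the retinoid receptor gene Rxra (r = 0.93, rho = 0.81), the chaperonin gene Cct3 (r = 0.89, rho = 0.83) and Ywhaq, a 14-3-3 protein gene (r = 0.88, rho = 0.80).

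Zeb1 (ENSMUSG00000024238.16), the other ZEB repressor, ran from 11.85 to 12.19 in TMP195, 11.81 to 12.22 in MYCi975, 11.91 to 12.24 in Combo and 11.61 to 12.12 in Vehicle. Its differences from Vehicle were 0.04, 0.14 and 0.19 in TMP195, MYCi975 and Combo (SE 0.12 each, limma adjusted p = 0.990, 0.999 and 0.987), and they were -0.06, 0.04 and 0.09 without Vehicle replicate 4. Zeb1 and Vim went in opposite ways over the libraries (r = -0.73, permutation p = 0.00132, adjusted p = 0.0194; rho = -0.73, permutation p = 0.00193, adjusted p = 0.0311; n = 16). The value was -0.61 without Vehicle replicate 4 and MYCi975 replicate 3 and -0.72 within groups. Vehicle replicate 4 held the highest Vim and the lowest Zeb1 of all libraries. Between Zeb1 and Zeb2, which share their repressor role, no relation passed the test (r = -0.11, permutation p = 0.677, adjusted p = 0.857; rho = -0.06, permutation p = 0.823, adjusted p = 0.966; n = 16; r = 0.12 without Vehicle replicate 4 and Combo replicate 1). Genes most like Zeb1 included Arl4a (r = 0.88) and Thrap3 (r = 0.85).

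For the SNAI factors and Twist1 no difference passed the test, and every 95% confidence interval included 0. Snai1 (ENSMUSG00000042821.8) ran from 6.92 to 7.63 in TMP195, 7.06 to 7.57 in MYCi975, 7.24 to 7.81 in Combo and 7.21 to 7.73 in Vehicle, with differences from Vehicle of -0.14, -0.10 and 0.04 (SE 0.18 each). The first was 0.14 with the leukocyte covariate. Snai1 followed the fibroblast mean (r = 0.66, permutation p = 0.00536, adjusted p = 0.0472; rho = 0.55, permutation p = 0.0286, adjusted p = 0.21; n = 16), and r was 0.45 without MYCi975 replicate 3 and Combo replicate 3. The genes most like Snai1 were Angptl1 (r = 0.79), the collagen gene Col5a1 and Dclk1 (r = 0.77 each). Twist1 (ENSMUSG00000035799.7) ran from 10.49 to 10.91 in TMP195, 10.78 to 11.13 in MYCi975, 10.78 to 11.004 in Combo and 10.78 to 11.03 in Vehicle. Its differences from Vehicle were -0.15, 0.07 and 0.01 (SE 0.11 each), and the first was -0.06 without TMP195 replicate 2. The genes most like Twist1 were Tmed8 (r = 0.77), Selenon (r = 0.76) and Clec1a (r = 0.75).

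Snai2 (ENSMUSG00000022676.8), which encodes Slug, had 10.20, 10.33, 10.88 and 9.81 in TMP195 and 10.17, 10.27, 10.22 and 9.91 in MYCi975. It had 10.02, 10.63, 9.91 and 9.88 in Combo, and 10.47, 11.53, 10.14 and 10.07 in Vehicle. Vehicle replicate 2 stood above every other library. Set against Vehicle, Snai2 was at -0.25 in TMP195, at -0.41 in MYCi975 and at -0.44 in Combo (SE 0.27 each, limma adjusted p = 0.969, 0.999 and 0.987). Without Vehicle replicate 2 the differences were 0.08, -0.09 and -0.12. The genes most like Snai2 were Lancl3 (r = 0.89, rho = 0.62), Gnai3 (r = 0.88) and the interferon receptor gene Ifnar1 (r = 0.86).

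Lists of related genes were compared with Vehicle in the same way, and no gene of any list was called. Of 25 mesenchymal and matrix genes with a row, 22 were tested. Tagln, Thy1 and Cdh11 did not pass the filter, and Tagln was at the lowest value in 9 libraries and Thy1 in 7. The median differences were -0.11 in TMP195, -0.07 in MYCi975 and 0.01 in Combo, against medians over all tested genes of -0.01 in each comparison. The smallest p in Combo belonged to Vcan, which encodes the matrix proteoglycan versican (0.45, SE 0.14), the growth factor receptor gene Pdgfra (0.36, SE 0.15) and the membrane protease gene Mmp14 (0.26, SE 0.11), each with a limma adjusted p of 0.987. In TMP195 they were Mmp14 (0.21), Vcan (0.23) and the gelatinase gene Mmp2 (0.37). In MYCi975 they were Msn (-0.22), Mmp14 (0.19) and Cd44 (-0.18).

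Of the 11 tested epithelial genes, 5 were higher and 6 lower in TMP195, with a median of -0.04. The numbers were 3 and 8 in MYCi975 (median -0.08) and 6 and 5 in Combo (median 0.02). The keratin gene Krt7 differed by 0.62 in TMP195 and 0.54 in Combo (SE 0.21 each, limma adjusted p = 0.945 and 0.987). Jup, which encodes the junction protein plakoglobin, was at -0.55 in TMP195, at 0.34 in MYCi975 and at 0.27 in Combo (SE 0.22). Tjp1 differed by 0.28 in TMP195. In MYCi975 the transcription factor gene Elf3 differed by -0.29 and the desmosome gene Pkp3 by -0.41, and in Combo by -0.21 and -0.32.

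Of 17 other transcription factor genes tied to the transition, the median differences were -0.04 in TMP195, -0.08 in MYCi975 and -0.14 in Combo. Tcf4, which encodes the E-protein E2-2, differed by 0.23 in MYCi975 and 0.31 in Combo (SE 0.10 each, limma adjusted p = 0.999 and 0.987). Klf8 differed by -0.74 in TMP195 and -0.67 in MYCi975 (SE 0.36 each), Twist2 by -0.25 in MYCi975, Klf4 by -0.43 and Foxc1 by 0.29 in Combo. In TMP195, Hmga2 differed by -0.31 and Yap1 by -0.17, and Yap1 was 0.01 with the leukocyte covariate.

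Of 19 tested TGF-beta signalling genes, the median differences were 0.02 in TMP195, -0.01 in MYCi975 and 0.08 in Combo. Tgfb3 differed by -0.45 in TMP195 (SE 0.22) and 0.37 in Combo. Eng, which encodes the co-receptor endoglin, differed by -0.36 (SE 0.17) and Tgfbr3 by 0.23 in TMP195. In MYCi975, Bmpr1a differed by -0.26, Ltbp1 by -0.24 and Bmp4 by 0.25, and in Combo, Tgfb2 by 0.53 (SE 0.32) and the receptor gene Tgfbr1 by 0.23. Of 12 tested cadherin and catenin genes, the medians were 0.05 in TMP195, -0.05 in MYCi975 and 0.01 in Combo. Among them, Cdh13, a cadherin anchored to the membrane by a lipid, differed by 0.38 in TMP195 (SE 0.16) and -0.20 in Combo. Afdn differed by 0.24 in TMP195, Nectin2 by 0.27 in MYCi975 and Pcdh7 by -0.17 in MYCi975 and -0.20 in Combo.

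Markers of other cells were looked at for the whole series. Markers of normal lung epithelium had a row for 4 of 8 genes, with the surfactant gene Sftpb at the lowest value in 10 of 16 libraries. Keratinocyte markers had a row for 2 of 6, and neither passed the filter. Of the other lists, 6 of 8 neutrophil, 1 of 10 NK and T cell, 4 of 10 endothelial, 2 of 6 nerve and Schwann cell and 2 of 6 skeletal muscle markers were tested, and none was called in any comparison. On the leading principal component (21.2% of variance), replicate 4 of TMP195, MYCi975 and Vehicle lay apart.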

How the data were processed

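RNA was measured by sequencing in 16 libraries. The authors deposited log2-scale values after variance stabilisation, with a column for each library. The submitters' processing notes name Salmon and the build hg38, although samples and gene identifiers are mouse. Which mouse annotation and which stabilisation tool were used was not given in the sources used here. Gene symbols were matched by identifier without its version (23150 of 24334). Genes that exceeded the lowest value by at least 1 in 4 or more libraries were fitted with limma 3.58.1 in R 4.3.3, with 1 mean per group, all 16 libraries and an intensity trend, with Benjamini-Hochberg adjustment inside each of 6 comparisons. Cdh1 and Epcam, below the filter, were compared by an exact permutation test. The replicate numbers of the labels were used as a block in an alternative. Correlations used 100000 permutations of all 16 libraries, without regard to group or replicate number, and were adjusted over 44 relations. The fit was tested on simulated data, where 84% of 200 genes shifted by 1 log2 unit in TMP195 were recovered among 15715, with 3 false calls. This shift is larger than any difference measured for the tested epithelial and mesenchymal state genes. For TMP195 against Vehicle, the simulated comparison, their largest difference was -0.40, for Ncam1. Over all comparisons the largest were 0.65 in the interaction and 0.62 between Combo and TMP195, both for Ncam1. Recovery of shifts of these sizes was not tested, so the lack of called genes does not exclude them.

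The 10 genes, the 5 lists of related genes and the 10 lists of cell markers were chosen with earlier results of these data known. Of each of the 5 lists of related genes, the 3 genes with the smallest p against Vehicle are named, and of each gene the 3 most correlated named genes were sought, of which 1 is not reported here. Alternatives were no filter, a stricter filter, no trend, quantile normalisation, median centring, the block, a leukocyte covariate, the compared groups alone, and leaving out libraries. No coordinates of genes are given beyond the RefSeq promoter windows, which are on GRCm38.p6.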

Additional observations from a re-analysis of the deposited data

Results flagged for a closer look

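In each group of 4 libraries, the highest or lowest value was compared with the others by Dixon's criterion. Of 40 groups looked at, 6 held such a value. Chance flags about 1 in 20 groups of untied values, and this rate does not apply to the 2 Epcam groups below, where the other libraries are tied at the lowest value and any single higher library is picked out. Cdh1 in MYCi975 replicate 4 was 6.07, against 5.11 to 5.20 in the other 3 libraries. Epcam was 5.52 in Combo replicate 2 and 5.43 in Vehicle replicate 1, with the other 3 libraries of either group at the lowest value, 4.84. In TMP195 replicate 1, Vim was 16.87, against 17.12 to 17.17, and Zeb1 was 12.19, against 11.85 to 11.88; this library also had the highest leukocyte mean, 8.01. Twist1 in TMP195 replicate 2 was 10.49, against 10.84 to 10.91.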

How the results depend on the processing

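No member was called under any alternative run. For the 8 tested genes over 6 comparisons, 62 of 920 values under the alternatives had the other sign. That total includes alternatives that cannot move a difference between group means. These are the filter settings, the trend, the block and the compared groups alone, and only the others could turn a sign. Where the difference was larger than its error, the sign turned for Snai1 in the interaction with the leukocyte covariate (-0.0845, against 0.28), for Cdh1 in MYCi975 without all libraries numbered 4 (-0.0308) and for Yap1 in TMP195 with that covariate (0.0109); the cause was not tested. Over all genes, 1 was called for Combo against Vehicle in the compared groups alone, and 1 for Combo against TMP195 with no intensity trend and also without TMP195 replicate 1 and MYCi975 replicate 3, those highest in leukocyte markers. Omitting each library gave 0 to 2 called genes for TMP195 against Vehicle and for Combo against TMP195, and 0 to 1 for MYCi975 against Vehicle and for Combo against MYCi975. The 2 came without TMP195 replicate 3, and single calls without MYCi975 replicate 2 or Combo replicate 4. Under the alternatives, Ncam1 ran from -0.50 to -0.22 for TMP195 against Vehicle and from 0.42 to 0.72 between Combo and TMP195. In the interaction it ran from 0.41 to 0.85, and its lowest limma adjusted p in these 3 comparisons was 0.177. Its sign also held for Combo against MYCi975 (0.13 to 0.35) and for Combo against Vehicle (0.18 to 0.27). Zeb2 for Combo against TMP195 ran from -0.38 to -0.30. The replicate block leaves every difference as it was, because each group holds the same replicate numbers. It can change only the errors and p, and no member was called with it. Same-numbered libraries correlated over 0.1 in 15 of 24 pairs (median 0.19, lowest -0.24), against 10 of 72 pairs with different numbers (median -0.04), and 9 of 16 libraries correlated best with their own number. The numbers were not treated as pairing the libraries, because a likeness was asked of every same-numbered pair and the labels name no shared source. The likeness was uneven: pairs numbered 1 ran from 0.20 to 0.43 and pairs numbered 4 from 0.17 to 0.39. Pairs numbered 2 ran from -0.11 to 0.24 and pairs numbered 3 from -0.24 to 0.12. Libraries numbered 1 and libraries numbered 4 thus shared variation across groups. The main fit and the correlation permutations did not account for it, and its source was not tested. Depth is unknown, which limits what can be said of Cdh1 and Epcam.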
